A study of Danio rerio with 2 samples.

Results

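The Foxo factors of the zebrafish were described in cells positive for a gata1-EGFP transgene, sorted at 22 hours post fertilization from *add1* knockout embryos and from their siblings. The members were the 5 rows of the expression table named *foxo1a*, *foxo1b*, *foxo3a*, *foxo3b* and *foxo4*, out of 32105 genes. Foxo proteins are forkhead transcription factors that enter the nucleus and switch on their targets when insulin and growth factor signalling is low. When the kinase Akt is active it phosphorylates them, 14-3-3 proteins bind them, and they are held in the cytoplasm. Their targets include inhibitors of the cell cycle, antioxidant enzymes, and genes of autophagy and cell death, and in the mouse Foxo3 is known for its part in the last steps of red cell formation. Zebrafish carry *foxo1* and *foxo3* each as a pair of paralogs, a and b. Described here is whether both genes of a pair stood on the same side of the comparison. The genes were picked with their values in these data known, so for *foxo3* this was no open question.

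Each genotype was represented by 1 library, *add1* knockout (the mutant library) and wild type (the sibling library). Both groups carry the gata1-EGFP transgene, in which the promoter of the erythroid factor *gata1a* drives the marker by which the cells were sorted, and the labels call the cells erythroblasts. The labels do not state how many embryos were pooled or which allele of *add1* was used. Since each genotype has 1 library, nothing could be checked against replicates or tested across embryos, and an effect of genotype and one of preparation cannot be told apart. Ranges in brackets after a fold or level are exact 95% counting intervals, which cover the counting of reads only. The libraries held 5956344 counts (mutant) and 6157792 counts (sibling). Levels are CPM, that is counts scaled to library size (totals multiplied by trimmed-mean, or TMM, factors), and a gene was taken as measured from 10 CPM in the higher library. Genes past 2-fold are those with a log2 ratio of CPM + 1, mutant over sibling, of at least 1 in size. A gene can be measured only through the library where it is high, and such genes add to the counts past 2-fold. *add1* itself was at 2.82 CPM in the mutant against 203 CPM in the sibling library, 72.1-fold lower (45.4 to 122). Of 25 symbols of an erythroid marker list 22 were found and measured, and 13 of these passed 2-fold downward and 0 upward, with summed levels of 50788 CPM (mutant) and 118457 CPM (sibling). *gata1a* was at 580 and 894 CPM. The erythroid genes *lmo2* (883 and 948 CPM) and *gfi1b* (677 and 683 CPM) were close to equal, and with plain library totals both lay on the other side of 1. Markers of other tissues were present too. The skeletal muscle list was at 13300 CPM in the mutant against 5362 CPM in the sibling library in sum, with 10 of 22 measured genes at least 2-fold higher and 1 lower. It was divided, with 16 of the 22 log2 ratios above 0 and 6 below, among them *myhz2* (71.2 and 112 CPM). *actc1b* (3379 and 1532 CPM) and *smyhc1* (2562 and 580 CPM) were the largest parts of the sum. The hatching gland and notochord list was at 3200 and 405 CPM in sum, with 8 of 9 measured genes higher. The remaining gene, *copb2*, was at 166 and 225 CPM and so held most of the sibling sum. The neural list was at 463 and 227 CPM, with 4 of 8 measured genes at least 2-fold higher. Of the genes of these 3 lists, 1 neural and 1 hatching gland or notochord gene had no count in the sibling library, and all had counts in the mutant library. The epidermis list was at 3189 and 2258 CPM in sum, with 4 of 13 measured genes past 2-fold upward and 0 downward. In the endothelium list, at 249 and 219 CPM, 0 of 7 measured genes passed 2-fold. The myeloid list was at 1897 and 2176 CPM, with 1 of 15 measured genes past 2-fold upward and 6 downward, and the thrombocyte list at 99.6 and 159 CPM, with 1 of 4 upward and 2 downward. Over all measured genes 7.05% passed 2-fold upward and 4.52% downward. The part of these other tissues in the values that follow was not tested. Where 2 levels are joined by "and" or "against", the mutant library comes first.

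The *foxo3* paralogs differed in opposite directions. *foxo3b* (ENSDARG00000042904, chromosome 20, 32383886 to 32429857, build GRCz10) reached 2872 counts in the mutant against 533 in the sibling library. Its level was 449.6 CPM (433 to 466) in the mutant against 92.8 CPM (85.1 to 101) in the sibling library. The mutant library was therefore the high one for this gene, by 4.84-fold (4.41 to 5.32). *foxo3a* (ENSDARG00000023058, chromosome 17, 6635771 to 6653555) had 163 counts in the mutant against 498 in the sibling library. Its level was 25.5 CPM (21.7 to 29.7) in the mutant against 86.7 CPM (79.3 to 94.7) in the sibling library. Here the sibling library was the high one, by 3.40-fold (2.84 to 4.08).

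With counts divided by the plain library totals, the scaling by which these genes had been picked, *foxo3b* was 5.57-fold higher (5.08 to 6.12) and *foxo3a* 2.96-fold lower (2.47 to 3.55) in the mutant library. The members were chosen by these values, which are therefore a description and support nothing further. Of 9625 measured genes, *foxo3b* had the 103rd highest log2 ratio (2.26) and *foxo3a* the 69th lowest (-1.73). Among the 254 genes that reached the level of *foxo3b* in the mutant library, 15 had a ratio at least as high, *foxo3b* included. Among the 2432 genes that reached the level of *foxo3a* in the sibling library, 23 had a ratio at least as low, *foxo3a* included.

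The other members were near equal or too low to compare. *foxo4* (ENSDARG00000055792, chromosome 14, 30569800 to 30577614), the only Foxo4 gene in the table, had 253 counts in the mutant against 226 in the sibling library. These were 39.6 CPM (34.9 to 44.8) and 39.4 CPM (34.4 to 44.8), a ratio of 1.01 (0.838 to 1.21). *foxo1a* (ENSDARG00000099555, chromosome 15, 3296910 to 3391535), one of the genes related to mammalian Foxo1, the main Foxo factor of insulin action in liver, had 76 and 73 counts. Its levels of 11.9 CPM (9.37 to 14.9) and 12.7 CPM (9.97 to 16.0) gave a ratio of 0.936 (0.670 to 1.31), and with plain library totals the ratio lay on the other side of 1, at 1.08 (0.770 to 1.5). For both genes the counting intervals of the libraries overlapped. *foxo1b* (ENSDARG00000061549, chromosome 10, 31865366 to 31917614) had 5 counts in the mutant against 3 in the sibling library, and its ratio of 1.5 had an interval from 0.291 to 9.65. At this depth no difference of *foxo1b* could have been seen unless it was very large.

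Of the 5 members, 4 were measured and 2 of them passed 2-fold, *foxo3b* upward and *foxo3a* downward. Over all measured genes 11.6% passed 2-fold, 7.05% upward (679 genes) and 4.52% downward (435 genes), and since the members were picked on this comparison nothing is read from their share. Other scalings moved this split, to 981 upward and 248 downward with plain library totals. It was 932 and 309 when globin, mitochondrial and ribosomal protein genes were left out of the totals. The deposited FPKM gave 434 and 150, but there the minimum of 10 and the pseudocount of 1 were in FPKM units. That minimum left 5999 measured genes, so this split is not one of scaling alone. Over the 9625 genes measured by CPM the log2 ratio had a median of -0.08, which was 0.12 with plain library totals. The 2 remaining Foxo genes of the zebrafish, *foxo6a* and *foxo6b*, are listed without a name and were found by gene ID. *foxo6a* (ENSDARG00000100486) had 0 counts in both libraries, where 3 counts would be 0.470 CPM (mutant) and 0.523 CPM (sibling). *foxo6b* (ENSDARG00000024619) had 3 counts in the mutant against 0 in the sibling library.

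**Figure D1:**
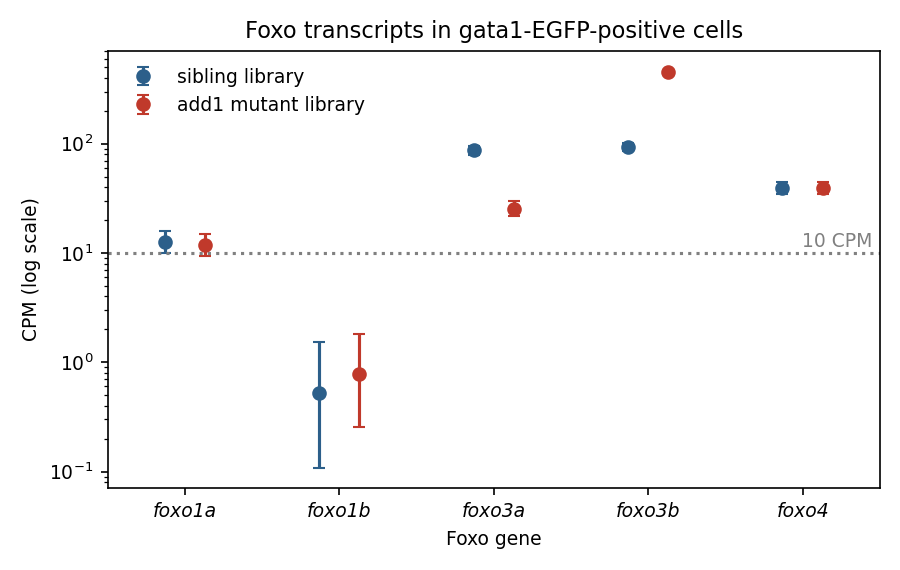
Level of each Foxo gene in CPM (log axis) in the sibling library (blue) and the *add1* mutant library (red), with bars for exact 95% counting intervals and a dotted line at the minimum of 10 CPM. *foxo3a* and *foxo3b* lie close together in the sibling library (86.7 and 92.8 CPM) and apart in the mutant library (25.5 and 449.6 CPM). Within *foxo4*, and within *foxo1a*, the points of both libraries lie close to each other.

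Within the *foxo3* pair the comparison of paralogs needs no library scaling. *foxo3b* made up 51.7% (48.6 to 54.8) of the 1031 counts of the pair in the sibling library and 94.6% (93.8 to 95.4) of the 3035 counts in the mutant library. The ratio of *foxo3b* to *foxo3a* was thus 16.5 times higher in the mutant library (13.4 to 20.2), or 4.04 on the log2 scale. The pair as a whole was also higher, at 475 against 180 CPM, or 2.65-fold (2.46 to 2.84). The authors' rule for reads that match both paralogs is not given in the sources used here, so reads shared between *foxo3a* and *foxo3b* could not be traced. The summed level of the pair does not depend on how such reads were divided between the 2 genes, if each was counted once. It would depend on the rule if such reads were dropped or counted for both genes. For the *foxo1* pair the same comparison gave a ratio of ratios of 1.60 with an interval from 0.298 to 10.6, since *foxo1b* had 5 and 3 counts. *foxo1a* held 93.8% (86.2 to 98.0) of the counts of this pair in the mutant library, against 96.1% (88.9 to 99.2) in the sibling library.

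Levels of different genes were compared per length, as the deposited FPKM (fragments scaled to gene length and library size). The gene lengths that counts and FPKM imply were 5649 bases for *foxo3a*, 5453 for *foxo3b*, 5206 for *foxo4*, 5915 for *foxo1a* and 2022 for *foxo1b*. In the sibling library the order of FPKM was *foxo3b* (15.9), *foxo3a* (14.3), *foxo4* (7.05), *foxo1a* (2.0) and *foxo1b* (0.241). *foxo3b* and *foxo3a*, the leading genes of that order, did not differ beyond counting error there, with a ratio of 1.11 (0.979 to 1.26). In the mutant library the order was *foxo3b* (88.4), *foxo4* (8.16), *foxo3a* (4.84), *foxo1a* (2.16) and *foxo1b* (0.415). *foxo3b* now stood 18.3 times above *foxo3a* (15.6 to 21.5), and *foxo4* came before *foxo3a*, with counting intervals of 7.18 to 9.23 and 4.13 to 5.65 FPKM. In the *foxo1* pair *foxo1a* was the more abundant gene in both libraries, 5.20 times (2.13 to 16.5) in the mutant and 8.32 times (2.74 to 41.3) in the sibling library.

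As shares of the summed FPKM of the 5 genes, *foxo3b* went from 40.2% in the sibling library to 85.0% in the mutant library. *foxo3a* made up 36.3% in the sibling and 4.66% in the mutant library. *foxo4* made up 17.9% in the sibling and 7.85% in the mutant library, and *foxo1a* 5.08% and 2.07% in the same order, while their own levels differed by less than the counting error. Without *foxo3b* the summed level of the other 4 genes was 1.79-fold lower in the mutant library (1.60 to 2.01), at 77.8 against 139 CPM. Nearly all of this difference was that of *foxo3a*, at 25.5 against 86.7 CPM. With *foxo3b* the summed level of all 5 was 2.27-fold higher (2.13 to 2.42), at 527 against 232 CPM.

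**Figure D2:**
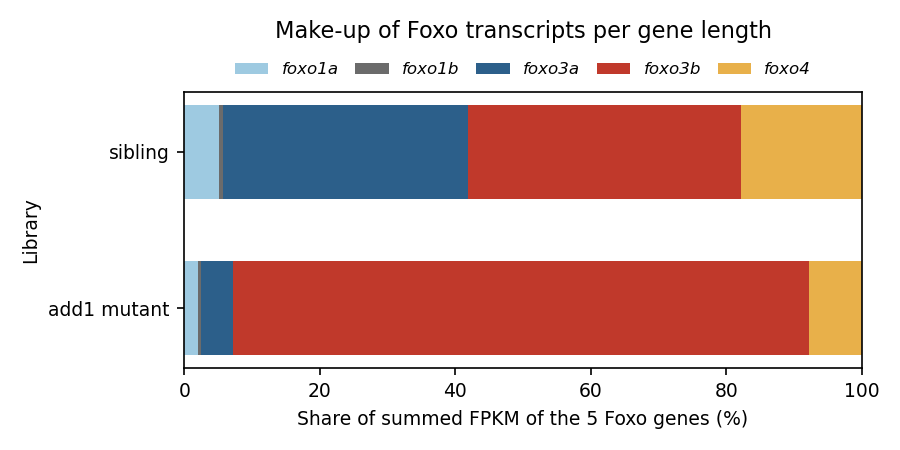
Share of the summed FPKM of the 5 Foxo genes held by each gene (horizontal axis, percent), with 1 bar per library. *foxo3a* and *foxo3b* hold 36.3% and 40.2% in the sibling library, and 4.66% and 85.0% in the mutant library.

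Few pairs of paralogs named a and b passed 2-fold in opposite directions at the minimum of 10 CPM. Of 2541 pairs of gene names that differ only in a last letter a or b, 699 had both genes measured. In 2 of these 699 pairs (0.286%) the mutant library was above the sibling library by 2-fold or more for one gene and below it by 2-fold or more for the other, and they were *foxo3* and *rhou*. This count depended on the settings, and was 17 pairs with a minimum of 1 CPM or none, 11 under a 1.5-fold rule, and 1 with a minimum of 50 CPM, with FPKM or with a pseudocount of 5. *rhoua* and *rhoub* encode small GTPases. *rhoua* was at 19.3 CPM in the mutant against 40.2 CPM in the sibling library, and *rhoub* at 129 and 14.3 CPM. The log2 ratio of *rhoua* (-1.03) lay just past the threshold, and that of *foxo3a* (-1.73) further from it. With plain library totals *rhoua* was lower by less than 2-fold. The count was again 2 there, but with *agfg1* in the place of *rhou*. By the main scaling *agfg1a* was at 197 and 474 CPM and *agfg1b* at 18.2 and 9.75 CPM. By the size of the difference between the log2 ratios of b and a (3.99), *foxo3* ranked 4th of the 699 pairs, where the median was 0.40. The first 2 places were taken by *oaz1* and *jak2*, through *oaz1b* (14.4 against 879 CPM) and *jak2a* (8.30 against 499.9 CPM), while their paralogs differed by less than 2-fold. In 17 pairs both genes passed 2-fold upward, and in 3 both did so downward. Paralogy was read from the names alone. The foxo3 pair was chosen for this difference, so its place among the pairs is a description.

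**Figure D3:**
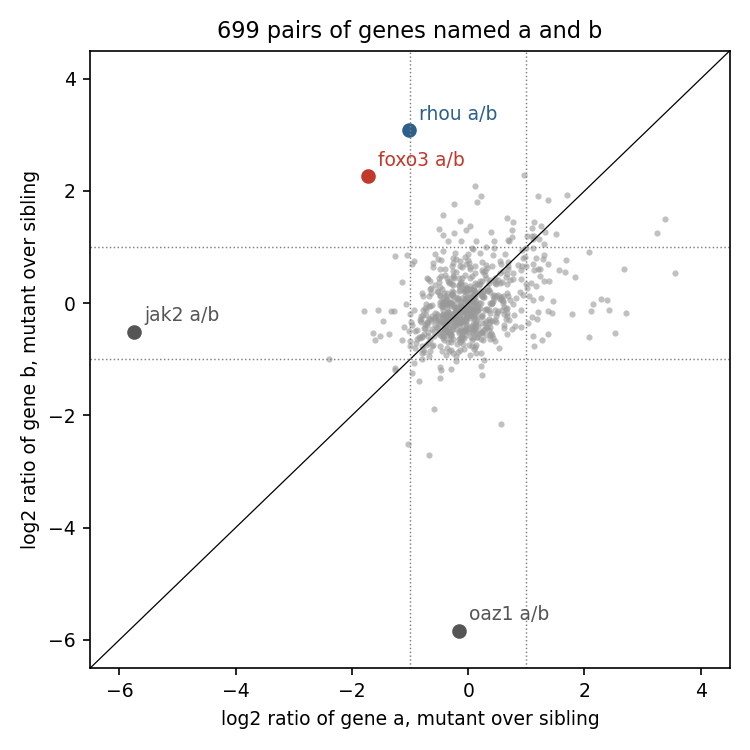
Log2 ratio of CPM + 1, mutant over sibling, of gene a (horizontal) and gene b (vertical) for 699 pairs of gene names, with dotted lines at 2-fold and the diagonal of equal ratios. *foxo3* and *rhou* are the 2 pairs in the upper left field, where a is lower and b higher by 2-fold, and no pair lies in the opposite field.

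None of the members lies on chromosome 21, which carries *add1*. Around *foxo3a* the 5 nearest measured genes on each side had log2 ratios from -0.93 to 0.70 with a median of -0.16, and none passed 2-fold. *foxo3a*, at -1.73, was lower than all 10 of them. Around *foxo3b* the median was -0.26, but 2 of the 10 genes were at least 2-fold higher, and both lay next to it on the side of the lower coordinates. The nearest was *armc2*, an armadillo repeat gene, at 155 CPM in the mutant against 43.0 CPM in the sibling library. The next was *sesn1*, which encodes sestrin 1, a stress-induced inhibitor of mTORC1 and itself a known Foxo target in mammals, at 184 and 67.4 CPM. The spans of *armc2* (32325331 to 32367987) and *sesn1* (32249476 to 32328278) overlap each other, so reads in the shared stretch are uncertain, but neither overlaps *foxo3b*. The only gene whose span overlaps that of *foxo3b*, si:dkeyp-34a4.1, had 0 counts in both libraries. On the other side of *foxo3b* the 5 genes had log2 ratios from -0.82 to -0.01. Near *foxo1a* 2 of 10 neighbours passed 2-fold, both higher and both named *RNF14 (1 of many)*. Their spans (4020394 to 4037636 and 4018539 to 4051033) overlap, so here too reads in the shared stretch are uncertain. Near *foxo4* 4 of 10 did, all higher, among them *gpc4*, a glypican, at 38.3 and 14.5 CPM, while *foxo4* did not differ. Near *foxo1b* *wnt11r*, a Wnt ligand gene, was the 1 that did, at 12.7 and 5.75 CPM. Over all measured genes 11.6% passed 2-fold, 7.05% upward, and nothing is read from counts on 10 neighbours each.

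**Figure D4:**
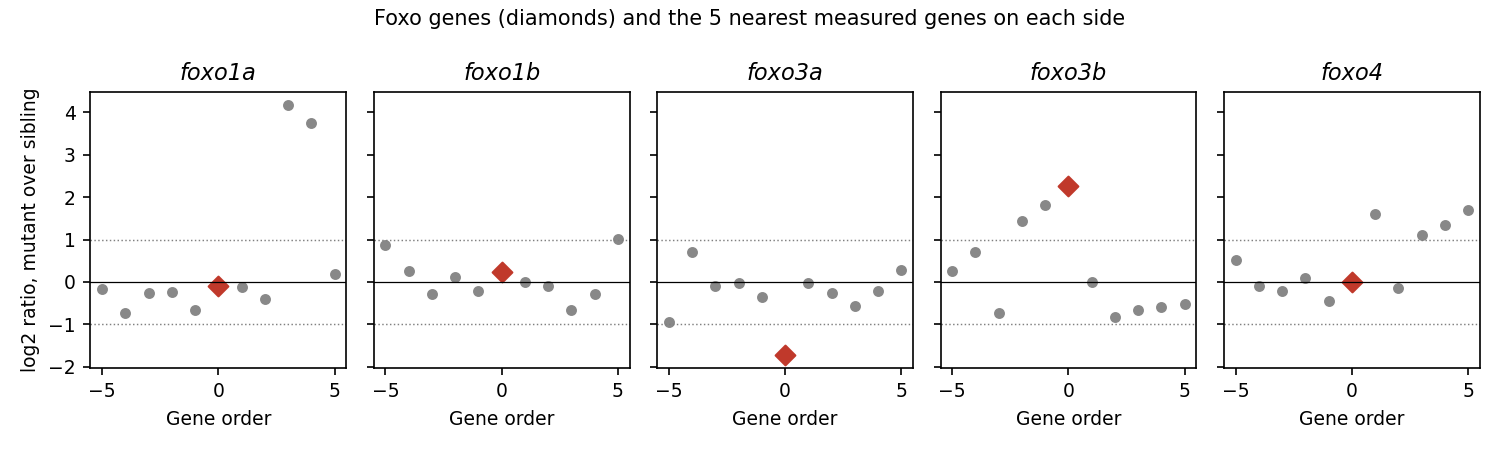
Log2 ratio of CPM + 1, mutant over sibling (vertical), of each Foxo gene (red diamond) and of the 5 nearest measured genes on each side (grey), by gene order along the chromosome (horizontal). *foxo3a* stands below all its neighbours, and the 2 genes directly before *foxo3b* are at least 2-fold higher, as it is.

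The genes upstream of Foxo, a list of insulin receptors, PI3K subunits, Akt kinases and their partners, were near the median of all genes. Of 30 measured genes, out of 38 listed, 2 passed 2-fold upward and 1 downward, with a median log2 ratio of 0.01. These 3 genes are 10% of the list, close to the 11.6% of all measured genes, so their number is no result about the list. *pik3r3a*, which encodes a regulatory subunit of PI3K, was at 330.4 CPM in the mutant against 62.0 CPM in the sibling library, 5.33-fold higher (4.76 to 5.98). Its paralog *pik3r3b* was at 46.5 and 44.6 CPM, so this pair also differed between a and b, by 2.34 on the log2 scale. *sgk2b*, a kinase of the SGK family that can phosphorylate Foxo proteins in mammals, was at 19.1 and 7.66 CPM. *inpp5d*, which encodes the blood cell phosphatase SHIP1, an opponent of PI3K, was 2.16-fold lower (1.82 to 2.58), at 30.7 against 66.4 CPM. With plain library totals *inpp5d* was lower by less than 2-fold. The Akt genes themselves were low or close to equal. *akt2* was at 44.0 and 47.7 CPM, and *akt2l*, *akt3a*, *akt3b* and the gene named *AKT1* were below 10 CPM in both libraries.

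Of the 14-3-3 genes, 10 of 11 listed were measured and 2 were at least 2-fold higher, where 7.05% of all measured genes were. *ywhag1* was at 11.9 CPM in the mutant against 3.14 CPM in the sibling library, and *ywhag2* at 62.1 and 30.5 CPM, just at 2-fold. *ywhag1* reached the minimum of 10 CPM only in the mutant library. The members with the most counts, *ywhaba* (725 and 833 CPM) and *ywhabb* (616 and 665 CPM), differed by less, as did *ywhae2* (86.9 and 70.7 CPM) and *ywhaz* (168 and 139 CPM). Of the enzymes that modify or export Foxo proteins, 24 of 33 listed were measured, with a median log2 ratio of -0.26, against -0.08 for all measured genes. In this list 1 gene passed 2-fold in each direction, a share near that of all genes. *mdm2*, for a ubiquitin ligase, showed a 2.21-fold higher level (1.99 to 2.46), at 190.0 against 85.9 CPM. *cdk2*, a cyclin-dependent kinase gene, was 2.22-fold lower (1.97 to 2.49), at 69.0 against 153 CPM. With plain library totals *cdk2* was lower by less than 2-fold. *cdk1* (177 and 344 CPM) and the nuclear export receptor gene *xpo1a* (308 and 549.5 CPM) were next in size. The deacetylase gene *sirt1* was at 32.4 and 28.4 CPM.

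Known Foxo targets listed under cell cycle arrest included many genes that were higher in the mutant library. Of 15 measured genes, out of 19 listed, 7 passed 2-fold upward and 0 downward, beside 7.05% and 4.52% of all measured genes, with a median log2 ratio of 0.96. This median lay 1.04 above that of all measured genes, and 1.03 above it with plain library totals. Since this list and the others were chosen with earlier results of these data known, their shares and medians are a description and no test. *rbl2*, which encodes the pocket protein p130, had 446 counts in the mutant against 18 in the sibling library, or 69.8 and 3.14 CPM, and was 22.3-fold higher (13.9 to 37.9). *gadd45aa*, a growth arrest gene, was at 120 and 9.23 CPM, 12.99-fold higher (9.83 to 17.5). *cdkn1ba*, for the inhibitor p27, was at 84.8 and 15.0 CPM, and *cdkn1a*, for the inhibitor p21, at 63.6 and 11.3 CPM. The gene of the list with the most counts was *ccng1*, for cyclin G1, at 7976 and 1776 CPM. *ccng2*, for cyclin G2, a Foxo target in mammals, was at 52.8 and 47.2 CPM and did not reach 2-fold. The list also held D-type cyclin genes, which are not genes of arrest. Of these, *ccnd1* was at 450 and 541 CPM and *ccnd2a* at 20.7 and 10.1 CPM, while *ccnd2b* was not measured. The median of the list, 0.96, is the log2 ratio of *ccnd2a*. Paralogs within this list differed as well. *cdkn1bb* was at 75.6 and 82.6 CPM, and the b to a difference of this pair was -2.55 on the log2 scale. *gadd45ab* was at 24.1 and 16.4 CPM, a difference of -3.03. Several of these genes are also known targets of other regulators, and in the same library the skeletal muscle list was at 13300 against 5362 CPM. The part of other cell types in these values was not tested.

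Targets listed under oxidant defence went both ways, with 4 of 18 measured genes at least 2-fold higher and 3 lower. The shares over all measured genes were 7.05% and 4.52%. Their median log2 ratio was -0.20, and 0.00 with plain library totals. *sesn3*, which encodes sestrin 3, a Foxo target in mammals, was 8.94-fold higher (7.90 to 10.1), at 437 against 48.9 CPM. *sesn1* was 2.73-fold higher (2.43 to 3.07), and *sesn2* was at 24.0 and 22.6 CPM. *txnipb* (17.4 and 5.75 CPM) and *txnipa* (292 and 133 CPM), for the thioredoxin-interacting protein, were both higher. This protein inhibits thioredoxin, so these 2 of the 4 higher genes are not genes of defence. The 3 genes that passed 2-fold downward encode enzymes. *sod2*, the mitochondrial superoxide dismutase, was 3.02-fold lower (2.08 to 4.49), at 6.10 against 18.5 CPM. *txnrd1*, a thioredoxin reductase, was at 156 and 396 CPM, and *prdx2*, the abundant red cell peroxiredoxin, at 889 and 1786 CPM. The log2 ratio of *prdx2* (-1.01) lay just past the threshold, and with plain library totals this gene was lower by less than 2-fold. *cat*, for catalase, was at 9.71 and 14.1 CPM and did not reach 2-fold.

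**Figure D5:**
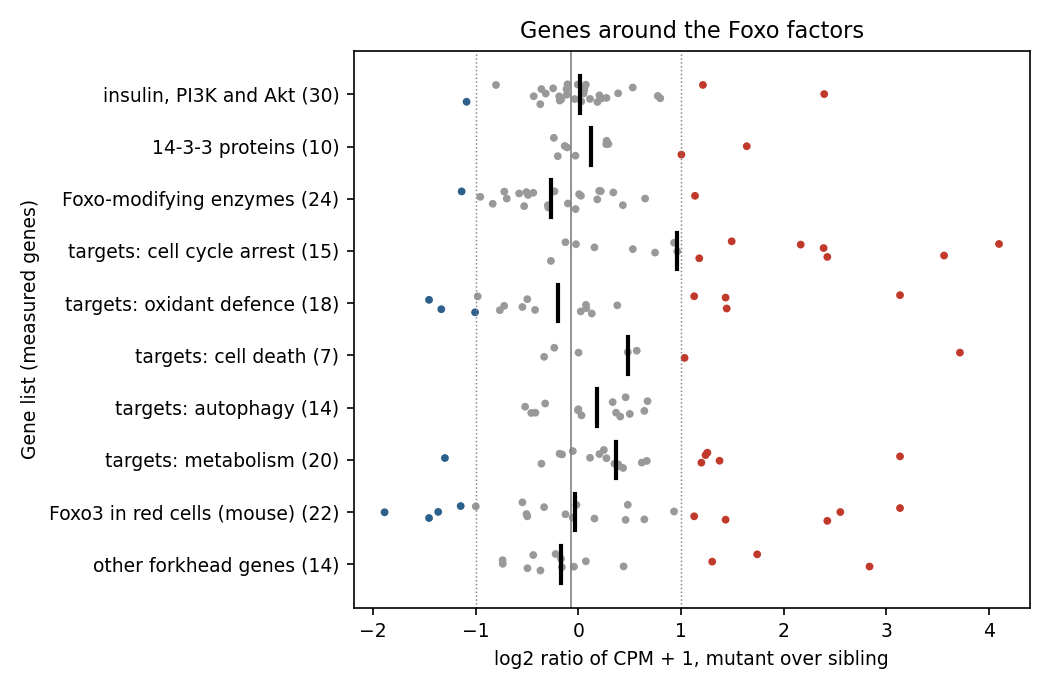
Log2 ratio of CPM + 1, mutant over sibling (horizontal), of each measured gene of the lists named on the vertical axis, with the number of genes in brackets, black bars for medians, a grey line at the median of all measured genes (-0.08) and dotted lines at 2-fold. Genes past 2-fold are red (higher) or blue (lower). The list labelled cell cycle arrest, which also holds D-type cyclin genes, has 7 red and 0 blue points.

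Of the targets of cell death, 7 of 13 listed were measured and 2 were at least 2-fold higher, a count on few genes, beside 7.05% of all measured genes. *bbc3*, for the pro-apoptotic protein Puma, was at 111 and 7.49 CPM, and *tnfsf10l*, a death ligand gene, at 10.3 and 4.53 CPM. Both reached the minimum of 10 CPM only in the mutant library. *bcl2l11*, for Bim, a classical Foxo3 target in mammals, had 8 counts in the mutant against 9 in the sibling library, too few to compare. *bcl6ab* (62.8 and 42.0 CPM), a gene for the repressor Bcl6, and *bnip3la* (27.4 and 19.3 CPM), for a mitophagy receptor, stayed below 2-fold. As for the cell cycle list, the part of regulators other than Foxo in these values was not tested. Of the autophagy targets, 14 of 18 listed were measured and 0 passed 2-fold in either direction, where 11.6% of all measured genes did. Their median log2 ratio was 0.18, and *map1lc3a*, for an autophagosome protein, was at 170 and 106 CPM. *ulk1a*, for a starting kinase of autophagy, was at 13.6 and 8.36 CPM, *pik3c3* at 29.7 and 43.0 CPM and *gabarapl2* at 49.0 and 34.3 CPM.

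Targets of metabolism and growth signalling had 5 of 20 measured genes at least 2-fold higher and 1 lower, with a median log2 ratio of 0.37. Over all measured genes these shares were 7.05% and 4.52%. Beside *sesn3*, the higher ones were *trim63b* (30.5 and 11.1 CPM), *trim63a* (53.8 and 22.0 CPM), *eif4ebp1* (1057 and 447 CPM) and *pdk2a* (17.7 and 7.14 CPM). *trim63a* and *trim63b* encode muscle ubiquitin ligases, and *fbxo32*, another Foxo target gene of muscle, was at 29.6 and 24.7 CPM. The summed skeletal muscle markers were 2.48-fold higher in the mutant library, though 6 of the 22 measured had a log2 ratio below 0. The part of these markers in the values of this list was not tested. *eif4ebp1* encodes a repressor of translation. *igfbp1a*, for a binding protein of insulin-like growth factors, was the lower one, at 38.2 against 95.4 CPM. Of the genes of glucose release, *g6pca.1* and *g6pcb* had 0 counts in both libraries and *pck1* had 3 counts in the mutant against 1 in the sibling library. *g6pca.2* had 0 against 8 counts and *pck2* 15 against 38, and all of these genes were below 10 CPM.

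A list of 22 genes placed downstream of Foxo3 in mouse red cell maturation, or acting with it there, was measured in full and was divided. In the mutant library 5 genes passed 2-fold upward and 4 downward, against 7.05% and 4.52% of all measured genes, with a median log2 ratio of -0.04. *cited2*, a transcriptional coregulator gene, was at 22.2 and 2.96 CPM, 7.51-fold higher (4.53 to 13.2). The other higher genes were *sesn3*, *cdkn1ba*, *sesn1* and *txnipa*, which stand in the lists above. *xpo7*, for an export receptor needed for the maturing nucleus of mouse erythroblasts, was 3.73-fold lower (3.37 to 4.14), at 75.6 against 282 CPM. *klf1*, the erythroid Krüppel-like factor, was at 331 and 855 CPM, *slc38a5a*, an amino acid transporter gene, at 159 and 353 CPM, and *sod2* was the remaining one. With plain library totals *slc38a5a* was lower by less than 2-fold. *epor*, the erythropoietin receptor gene, was at 207 and 415 CPM, and *tal1*, an erythroid factor, at 1009 and 1432 CPM. *klf1* and *tal1* are also in the erythroid marker list, whose summed level was 2.33-fold lower in the mutant library. In RNA of sorted cells, fewer cells of a type and less RNA per cell cannot be told apart.

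Among the 52 other forkhead genes in the table, 14 were measured, and 3 passed 2-fold upward and 0 downward, where 7.05% and 4.52% of all measured genes did so. All 3 reached the minimum of 10 CPM only in the mutant library, so they were measured only because they were high there. *foxe3* was at 12.4 and 0.871 CPM, on 79 and 5 counts, and *foxa3*, an endoderm factor, at 23.3 and 6.27 CPM. *foxp1b* was at 25.98 and 9.93 CPM, while its paralog *foxp1a* was at 253 and 260.4 CPM. *foxi3a*, for a factor of skin ionocytes, was at 75.1 and 126 CPM. *foxm1*, which drives genes of cell division and is held back by Foxo3 in mammalian cells, was at 13.9 and 23.9 CPM and did not reach 2-fold.

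The genes most like *foxo3a* in their pair of levels, by Euclidean distance of log2(CPM + 1) over the 2 libraries, were *gins4* (27.7 and 87.6 CPM, distance 0.115), *mpv17* (27.9 and 77.9 CPM, 0.197) and *pola1* (23.5 and 77.2 CPM, 0.203). *gins4* encodes a subunit of the replicative helicase complex and *pola1* a DNA polymerase subunit, while *mpv17* encodes a protein of the inner mitochondrial membrane. Those most like *foxo3b* were *abcc5*, a transporter gene (378 and 111 CPM, distance 0.356), *mybphb* (415 and 124 CPM, 0.426) and *tnnc2* (319 and 112 CPM, 0.561). *mybphb* and *tnnc2* encode proteins of the sarcomere, and *tnnc2* is in the skeletal muscle list. Genes with a symbol that holds a colon or starts with zgc, LOC or ENSDARG were left out of this search, so nearer ones may exist. With 2 libraries this likeness rests on 2 values per gene.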

How the data were processed

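Sorted cells were taken through the SMART-Seq HT kit, without molecular identifiers, and read on a BGISEQ-500 instrument, as the labels' protocols state. Mapping was to GRCz10, per the submitters' processing notes. Which aligner, counter, strand setting and filters were used is not given in the sources used here. In the deposited table stand raw counts of reads per gene and FPKM, both made by the authors. The deposited FPKM follow the count totals (FPKM per count, sibling over mutant, 0.967).

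Counts were scaled with TMM factors of 1.07 (mutant) and 0.932 (sibling) over all genes (edgeR 4.0.16 in R 4.3.3, for scaling factors only). The minimum of 10 CPM is 63.9 mutant or 57.4 sibling counts. Intervals of CPM are exact Poisson, those of shares and folds Clopper-Pearson, and those of ratios of ratios exact conditional (SciPy 1.17.1). PCR copies count as separate reads, so intervals cover counting error only and may be too narrow. No p-value was computed. The intervals of folds and of ratios of ratios and the 2-fold rule were run on simulated Poisson counts. These hold no PCR copies or differences of preparation and used no TMM factors, so they check the code only.

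The members and lists were chosen with earlier results of these data known. Genes were matched by name, or else by gene ID through a name table. Genes named are the members, the 4 measured genes per list furthest from a ratio of 1, the 3 nearest to each *foxo3* gene, pairs opposite by 2-fold, *add1*, *gata1a* and the most abundant marker of each cell type list. Not every gene that this rule names is reported here. Other genes named, neighbours included, were chosen after their values were seen. *foxred1* and *foxred2*, which are not forkhead genes, were left out of the forkhead list. Alternatives were other scalings, pseudocounts, minimum levels, fold rules, FPKM, and pair names with a digit before the last letter. For FPKM the minimum of 10 and the pseudocount of 1 were applied in FPKM units, so fewer genes were measured.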

Additional observations from a re-analysis of the deposited data

How the results depend on the processing

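The *foxo3* pair was past the fold rule in opposite directions in 11 of 12 alternatives, and not with a 4-fold rule, since *foxo3a* is below 4-fold. This pair was chosen for its difference, so the number is a description. The other minimum levels and the 1.5-fold rule could not have changed the call, given the levels and ratios of the 2 genes. Ratios of *foxo3a* ranged from -1.76 to -1.39 on the log2 scale, the last with FPKM, and those of *foxo3b* from 2.22 to 2.46, the last with CPM by library total. The log2 difference of the *foxo3* paralogs ranged from 3.796 to 4.04. The *foxo1* difference of 0.68 ranged from 0.12 to 0.60, within its counting interval, and the ratios of *foxo1a*, *foxo1b* and *foxo4* also stayed within theirs. Counts moved more. Genes at least 2-fold higher (679) and lower (435) were 1787 and 896 with a minimum of 1 CPM or none, 193 and 222 with 50 CPM, 1414 and 1463 under a 1.5-fold rule, 141 and 41 under a 4-fold rule, and 434 and 150 for FPKM. CPM by library total left 248 lower genes, and a pseudocount of 5 left 421 higher genes. The 2 opposite pairs became 17 with a minimum of 1 CPM or none, 11 under the 1.5-fold rule, 0 under the 4-fold rule, and 1 with 50 CPM, FPKM, a pseudocount of 5, totals that leave out globin, mitochondrial and ribosomal protein genes, or names with a digit before the last letter. Of the 140 measured genes of the pathway lists, 23 were at least 2-fold higher and 9 lower. Together these are 22.9%, beside 11.6% of all measured genes, in lists chosen with earlier results known. The 2 counts became 25 and 14 with a minimum of 1 CPM or none, and 33 and 18 under the 1.5-fold rule. They were 9 and 0 under the 4-fold rule, and 19 and 4 for FPKM. The number of measured genes changes with the minimum and with FPKM, so those counts have another base. With 50 CPM 15 were higher, and with CPM by library total 5 were lower. Stricter rules hold fewer genes by construction, and otherwise the cause was not tested. No paired analysis was possible because each group has 1 library, so no replicate could be left out.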
